A study of Mus musculus with 8 samples.

Results

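The array of the skin sample taken 4 d after wax plucking was set against the array of the sample taken 2 d after it, which makes 2 of the 8 arrays of the series. Both samples came from female C57BL/6 mice, an inbred strain with black hair, and the labels give an age of 10 weeks for each, although their treatment protocol puts plucking at 7 to 8 weeks. Per the design text, all dorsal follicles had first been synchronised by an earlier waxing, and a second waxing started the clock, so the 4 d and 2 d mice share both procedures. The labels call the material adipose cells, whereas the design text speaks of fat and dermis around the follicles, and neither says how many mice went into a sample. Total RNA was labelled with Cy3 and hybridised to 1 array a sample. The shaved control was not used, and the 12 h, 1 d, 6 d and 10 d arrays serve below only to place the 4 d and 2 d levels in time. For these the labels give an age of 10 weeks at 12 h and 1 d, and of 11 weeks at 6 d and 10 d.

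A hair follicle rests until its stem cells in the bulge and hair germ are activated by signals that pass between them and the dermal papilla, a cluster of fibroblasts at the follicle base. WNT and hedgehog signals are known to favour growth and BMP signals to favour rest. In the growing follicle a dividing matrix gives rise to the inner root sheath, which hardens first and moulds the hair, and to the hair shaft, whose keratins and keratin-associated proteins are made later and higher up. Melanocytes in the matrix make pigment only during growth. Plucking is a known trigger of this growth phase, and the fat layer of mouse skin changes in thickness with the hair cycle.

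Levels are log2 signals relative to the 75th percentile of the same array, so a level of 0 is that percentile, and differences are 4 d minus 2 d. Of all spots, 77.4% at 4 d and 76.4% at 2 d lay well above background. Probes spotted repeatedly had a median SD of 0.08 at 4 d and 0.07 at 2 d, and where a gene had several probes, their differences had a median SD of 0.17, taken over 8333 genes. These errors are technical. With 1 sample at each time the spread between mice is unknown, no difference carries a test, and only folds and counts past 2-fold, a log2 difference of 1, are given. Of 34793 gene names, 29041 had a probe well above background on the brighter array. For 1453 of them the dimmer array gave no signal well above background, so that only a bound can be stated, as in at least 5-fold. The bound sets the bright level against the higher of the dim signal itself and the lowest signal well above background on that array.

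At 4 d, 1429 genes were at least 2-fold higher than at 2 d, which is 4.92% of the genes measured, and 1135 were at least 2-fold lower, which is 3.91%. The large differences lay mostly on the higher side: at 4-fold there were 551 higher genes (1.9%) and 122 lower ones (0.42%), and at 10-fold 142 higher (0.489%) and 25 lower (0.0861%). The lower calls were concentrated among dim genes, with 605 of 1135 among the 5809 genes of lowest mean level, against 409 of the 1429 higher calls. The median difference of all genes was -0.14, 36.3% of them were above their 2 d level by any amount, and lists are read relative to these values. Higher genes made up 55.7% of the calls, 67.3% with quantile normalization, 76.1% with normexp background correction and 48.6% without the filter on dim probes. The step from 1 d to 2 d, which shares the 2 d array, held 298 higher and 377 lower genes, or 1.04% and 1.31%. Later steps were larger than that one. From 4 d to 6 d, which shares the 4 d array, 1541 genes were higher and 834 lower, or 5.16% and 2.79%. From 6 d to 10 d there were 842 and 1151, or 2.91% and 3.97%. In bulk tissue a larger number of cells of a type and more RNA per cell cannot be told apart, here and in all that follows.

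**Figure D1:**
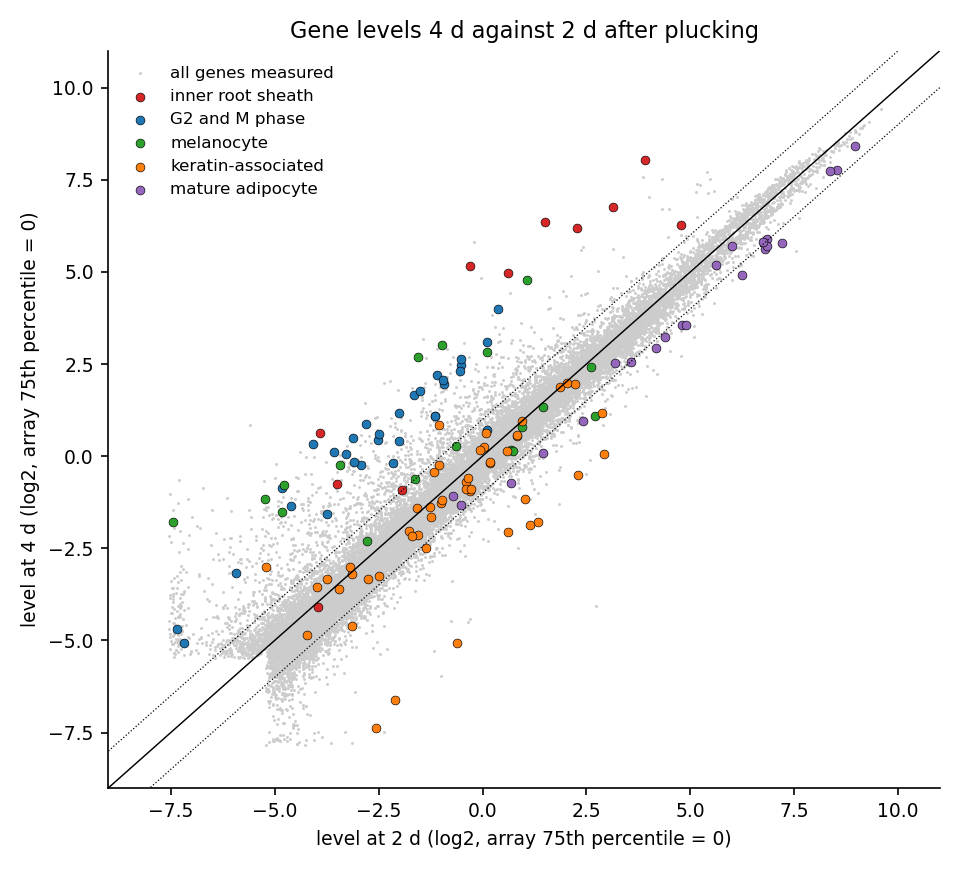
Level at 4 d (vertical axis) against level at 2 d (horizontal axis), both log2 relative to the 75th percentile of the array; each point is a gene, the solid line marks equal levels and the dotted lines 2-fold. Of the coloured lists, 10 of 11 inner root sheath, 30 of 31 G2 and M phase and 10 of 18 melanocyte genes lie on or above the upper dotted line, adipocyte genes lie below the solid line, and 12 of 49 keratin-associated genes lie below the lower dotted line. Points at the far left and bottom are genes not well above background on 1 of the arrays.

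Genes of the inner root sheath and its companion layer had the largest median difference of the 52 lists described. Of 11 measured members, all that the list holds, 10 were at least 2-fold higher at 4 d, where 4.92% of all genes were, and none was lower, with a median log2 difference of 3.92. Krt25, a type I keratin of the inner root sheath, stood at 6.35 at 4 d and 1.499 at 2 d, a 28.8-fold difference. Krt71, a type II partner of such keratins, stood at 8.04 at 4 d and 3.92 at 2 d, 17.5-fold higher. Krt28 reached 5.16 at 4 d, against -0.29 at 2 d, and its 2 probes gave differences of 4.98 and 5.45. All 3 were higher at 4 d, Krt25 and Krt71 by 1 probe each. Krt27 was 15.2-fold and Krt73 20.7-fold higher. Krt75, the keratin of the companion layer, stood at 0.62 at 4 d and -3.92 at 2 d. Tchh, which encodes trichohyalin, the granule protein that hardens the inner root sheath, was 12.3-fold higher, at 6.77 at 4 d and 3.15 at 2 d. Krt26 was 6.61-fold, Krt79 2.84-fold and Krt72-ps 2.05-fold higher. Krt74 stood near the bottom of the list on both arrays, with -4.09 at 4 d and -3.97 at 2 d.

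The probes of 2 of these keratins are given because each spans an exon junction. The 60 bases of Krt25 cover chr11:99177867-99178575 and those of Krt27 chr11:99207158-99207828, both on the minus strand in mm9, so that they extend over 709 and 671 bases of genome. They are written 5′ to 3′ as in the array files, with no part marked:
Krt25: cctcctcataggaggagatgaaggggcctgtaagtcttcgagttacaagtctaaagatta
Krt27: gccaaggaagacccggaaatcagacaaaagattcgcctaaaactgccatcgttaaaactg
Between any pair of the probes of Krt25, Krt27, Krt28, Krt71 and Krt73, the best ungapped alignment matched 18 to 23 of 60 bases. The other members were not compared. Of the 11 members 6 were highest at 4 d among the 6 arrays from 12 h to 10 d. Krt25 measured 1.11 on the 12 h array, -2.18 on the 1 d array, 1.499 and 6.35 on the 2 d and 4 d arrays, and 6.17 and 4.80 on those of 6 d and 10 d. It was lowest at 1 d, and the 2 d level was close to the 12 h level.

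Keratins of the hair shaft itself gave a mixed picture. Of 13 measured members 6 were at least 2-fold higher at 4 d and none lower, with a median difference of 0.80. Krt35, an early keratin of the shaft cuticle and the lower cortex, had the largest difference among genes with a symbol that were measured on both arrays, with 5.82 at 4 d and -0.21 at 2 d, or 65.4-fold. Krt32, a cuticle keratin, stood at -2.65 at 4 d and was not well above background at 2 d, at -6.00, so it was at least 5.92-fold higher. The cortex keratins Krt33b, Krt33a and Krt31 were 2.91-fold, 2.54-fold and 2.19-fold higher, and the cuticle keratin Krt82 2.11-fold, or 0.74 on the log2 scale with normexp. Krt86 and Krt34 were within 2-fold, at 1.12 and -0.62 at 4 d and 1.09 and -0.49 at 2 d. Krt86 then reached 4.68 at 6 d and Krt34 3.55. Krt85 depended on the probe: its brightest probe differed by 0.17 and another by 4.56, and the list's median was 1.08 with the mean over probes. Shaft keratins are near-identical in parts, so signal can be shared among them.

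Most keratin-associated protein genes were within 2-fold, and those past it were mostly lower. These small proteins fill the space between keratin filaments in the hair shaft. Of 49 measured members of 51, 12 were at least 2-fold lower at 4 d, against 3.91% of all genes, and 2 were higher, or 1 with normexp, while 35 were within 2-fold. The median difference was -0.30. Krtap6-2 stood at -5.07 at 4 d and -0.61 at 2 d, 22.0-fold lower at 4 d. Krtap16-1, now called Krtap19-2, stood at -1.80 at 4 d and 1.33 at 2 d, and Krtap16-10, now Krtap16-3, at -1.87 at 4 d and 1.14 at 2 d. All 3 were lower at 4 d than on the 2 d, 6 d and 10 d arrays. Krtap16-8, now Krtap6-5, was 7.24-fold lower, Krtap6-1 6.91-fold and Krtap16-7, now Krtap21-1, 6.43-fold. The second probe of Krtap6-1 gave -7.26, against -2.79 for the brighter probe. Krtap16-5, now Krtap19-3, and Krtap14 were not well above background at 4 d and were at least 10.8-fold and at least 7.85-fold lower.

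The 12 lower genes were not spread evenly over the genome. By the mm9 probe positions in the files, 11 of them were among the 20 measured Krtap genes of chromosome 16, whose median difference was -1.59, and the other, Krtap5-4, was among 5 on chromosome 7. None of the 19 on chromosome 11 was lower, and their median was -0.27. Some of these probes resemble each other: those of Krtap16-8 and Krtap6-1 matched at 57 of 60 bases, and the median over the 66 pairs among the 12 genes was 21.5 bases. The part of shared signal in the 12 calls was not tested. In time, Krtap16-1 measured 1.23 on the 12 h array, -1.73 on the 1 d array, 1.33 and -1.80 on the 2 d and 4 d arrays, and 4.70 and 6.60 on those of 6 d and 10 d. Its 4 d level thus lay with its 1 d level at the low end, but the list as a whole differed. The list's median was -1.48 at 12 h, -2.50 at 1 d, -0.61 at 2 d and -1.20 at 4 d. Of the 49 genes, 20 were at least 2-fold lower at 1 d than at 4 d, and 3 were at least 2-fold higher. At 6 d, 45 of the 49 genes were at least 2-fold higher than at 4 d, where 5.16% of all genes were. That count shares the 4 d array with the comparison above. Krt25 and Krtap16-1 were alike in being low at 1 d and higher at 2 d, and they parted at 4 d.

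**Figure D2:**
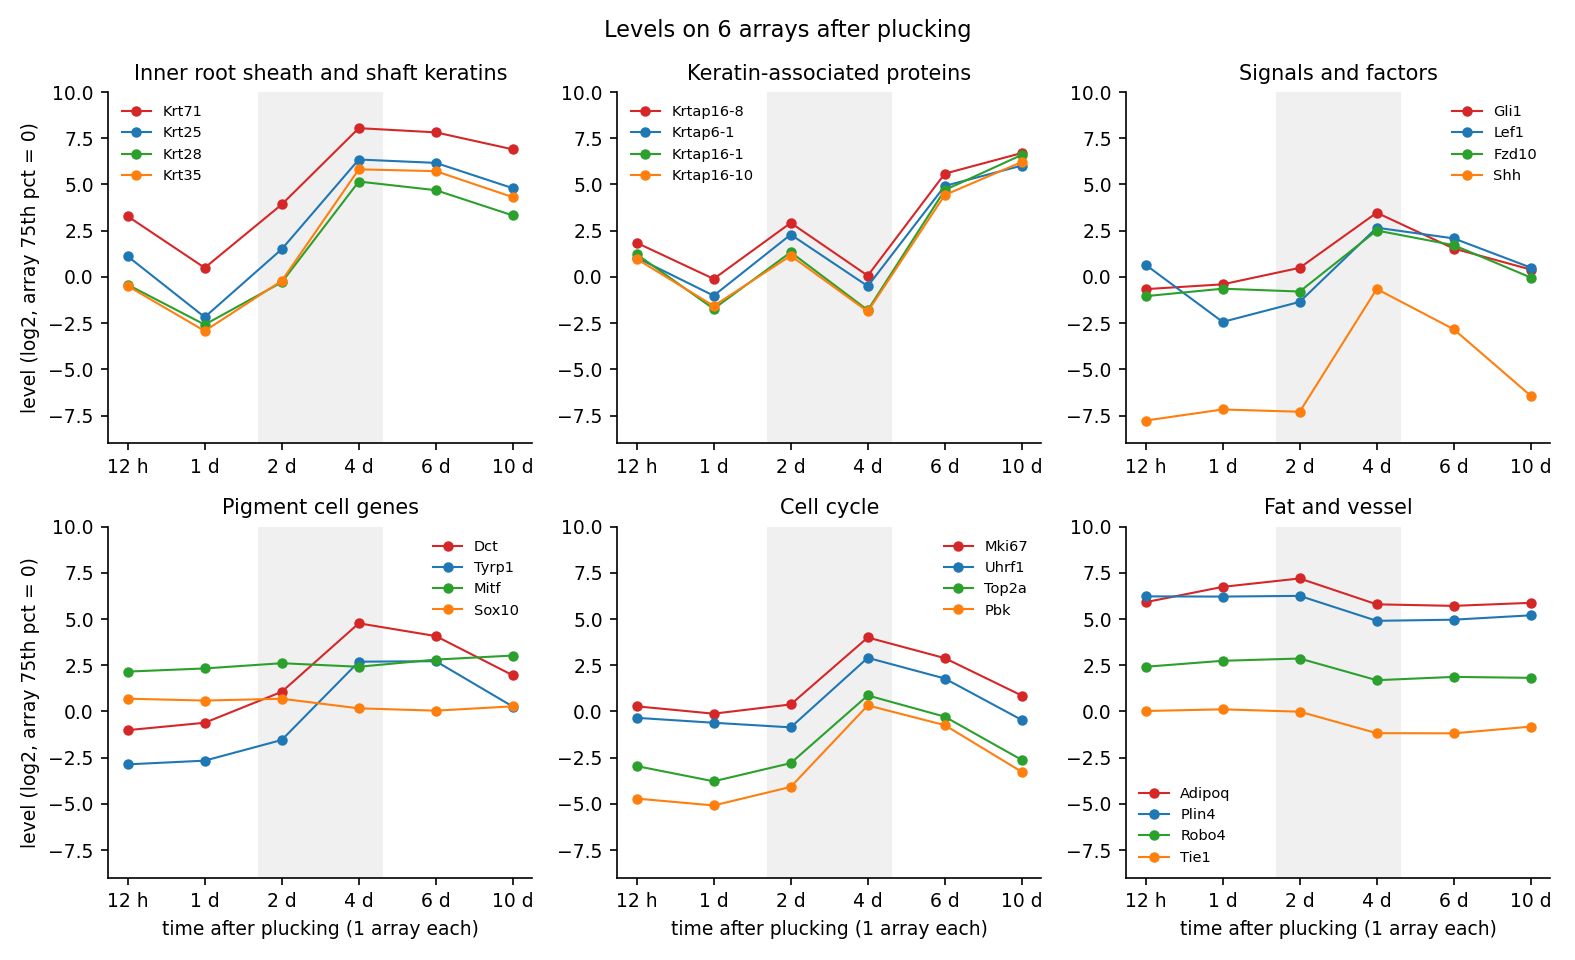
Levels of 4 genes in each of 6 groups on the arrays from 12 h to 10 d after plucking (horizontal axis, 1 array a time; vertical axis, log2 relative to the array's 75th percentile); points are single values and grey marks 2 d and 4 d. Krt25 climbs to 6.35 at 4 d while Krtap16-1 is at -1.80 there and at 4.70 at 6 d, Dct and Tyrp1 climb while Mitf and Sox10 stay within 2-fold of their 2 d levels, and Adipoq is highest at 2 d.

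Promoters of both families are shown because they hold the same letters close to the start. In RefSeq promoters of the GRCm38.p6 build, which run from 250 bases before to 50 after the start of a gene, TATAAA on either strand was in 7 of 10 promoters of the inner root sheath list, 5 of 7 of the shaft keratin list and 37 of 44 of the keratin-associated list, against 15.7% of the promoters of 27025 genes. Of Krt28 the 250 bases before the start are chr11:99374904-99375153, and of Krtap6-2 chr16:89420112-89420361, both on the minus strand, with TATAAA in capitals at -30 and -49:
Krt28: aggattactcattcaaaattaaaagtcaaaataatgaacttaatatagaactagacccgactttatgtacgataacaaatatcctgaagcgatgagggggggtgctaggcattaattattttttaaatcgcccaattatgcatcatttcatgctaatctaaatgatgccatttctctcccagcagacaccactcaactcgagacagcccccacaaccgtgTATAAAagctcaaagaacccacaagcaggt
Krtap6-2: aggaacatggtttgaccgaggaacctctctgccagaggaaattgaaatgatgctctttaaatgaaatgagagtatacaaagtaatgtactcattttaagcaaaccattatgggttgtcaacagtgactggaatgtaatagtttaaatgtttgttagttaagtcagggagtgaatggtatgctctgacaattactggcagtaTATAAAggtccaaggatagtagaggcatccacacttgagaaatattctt
The letters are shared by a gene that was 43.7-fold higher at 4 d and a gene that was 22.0-fold lower. Each was printed because it had the largest difference in its direction among genes of its list whose promoter holds TATAAA. The sharing by these 2 genes therefore follows from that choice. TATAAA was not particular to hair lists, since 6 of 8 wound keratinocyte promoters held it. A match is a description of these letters and shows no binding. The letters CTTTGAA or CTTTGAT or CTTTGTA or CTTTGTT, which resemble the site of the LEF and TCF factors and of which the first contains TTTGAA, were in 3 of 10, 4 of 7 and 18 of 44 promoters of the same lists, against 18.9%.

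Transcription factors of the matrix, shaft and inner root sheath were higher at 4 d in 14 of 21 measured members and lower in 1, with a median difference of 1.40. Dlx2, a homeobox factor, stood at 0.84 at 4 d and was not well above background at 2 d, at -5.60. It was thus at least 66.6-fold higher, the largest bound among genes with a symbol. Hoxc13, which controls shaft keratin genes, stood at 2.03 at 4 d and -2.22 at 2 d, 19.1-fold higher. Foxn1, the factor missing in nude mice, was 14.3-fold higher, with -0.59 at 4 d and -4.43 at 2 d. The related homeobox genes Dlx4 and Dlx1 were 11.7-fold and at least 9.48-fold higher, whereas Dlx3, which acts in the shaft, was within 2-fold at 3.34 at 4 d and 2.37 at 2 d. Vdr, the vitamin D receptor, was 7.55-fold, Ovol1 7.46-fold and Msx2 4.36-fold higher. Cux1 was 2.73-fold, Foxq1 2.64-fold, Msx1 2.31-fold, Gata3, a factor of the inner root sheath, 2.17-fold and Foxe1 2.06-fold higher, the last 0.66 on the log2 scale with normexp. Hr, Prdm1, Trps1 and Ets2 were within 2-fold. Sox21 was within 2-fold by its brightest probe and differed by 3.50 by another. Elf5 was the lower member, with -1.45 at 4 d and 0.03 at 2 d.

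Cross-linking enzymes, desmosome and cuticle genes followed the same direction, with 13 of 23 measured members higher, 1 lower (none with centring) and a median of 1.09. With normexp 10 were higher and with the mean over probes 11, and 1 was lower in each. Padi3, an enzyme that converts arginine in trichohyalin, stood at 2.93 at 4 d and -0.97 at 2 d, 14.9-fold higher. S100a3, a calcium-binding protein of the hair cuticle, was 12.3-fold higher. Dsp, which encodes desmoplakin, was 5.03-fold higher, Dsc1 6.70-fold and the hair desmoglein Dsg4 4.15-fold, although a second Dsg4 probe gave 0.04. Gjb2, which encodes the gap junction protein connexin 26, had the third largest difference among genes with a symbol that were measured on both arrays, with 4.84 at 4 d and -0.03 at 2 d.

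Markers of the bulge and hair germ had a median of 0.52, with 6 of 20 higher and 1 lower, the lower one not with quantile normalization, centring or normexp. Lhx2, a factor of follicle stem cells, was 8.42-fold higher, at 3.12 at 4 d and 0.05 at 2 d. Cdh3, which encodes P-cadherin of the hair germ and matrix, was 6.64-fold higher, Tbx1 4.33-fold, Lgr5 4.12-fold and Foxc1 3.11-fold. Among 26 dermal papilla markers 10 were higher and 2 lower, with a median of 0.39. With centring 10 were higher and 1 lower, and with normexp 8 and 1. Where only genes well above background on both arrays were kept, 7 of 23 were higher and 2 lower. Corin, a protease of the papilla, stood at -1.69 at 4 d and -5.05 at 2 d and was at least 10.3-fold higher. Rspo2, a secreted amplifier of WNT signals, was at least 9.57-fold higher. Both were near or below background on the 2 d array. Sox2 was at least 1.36-fold higher only, because it was dim at 4 d as well, and with normexp it differed by 0.32.

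**Figure D3:**
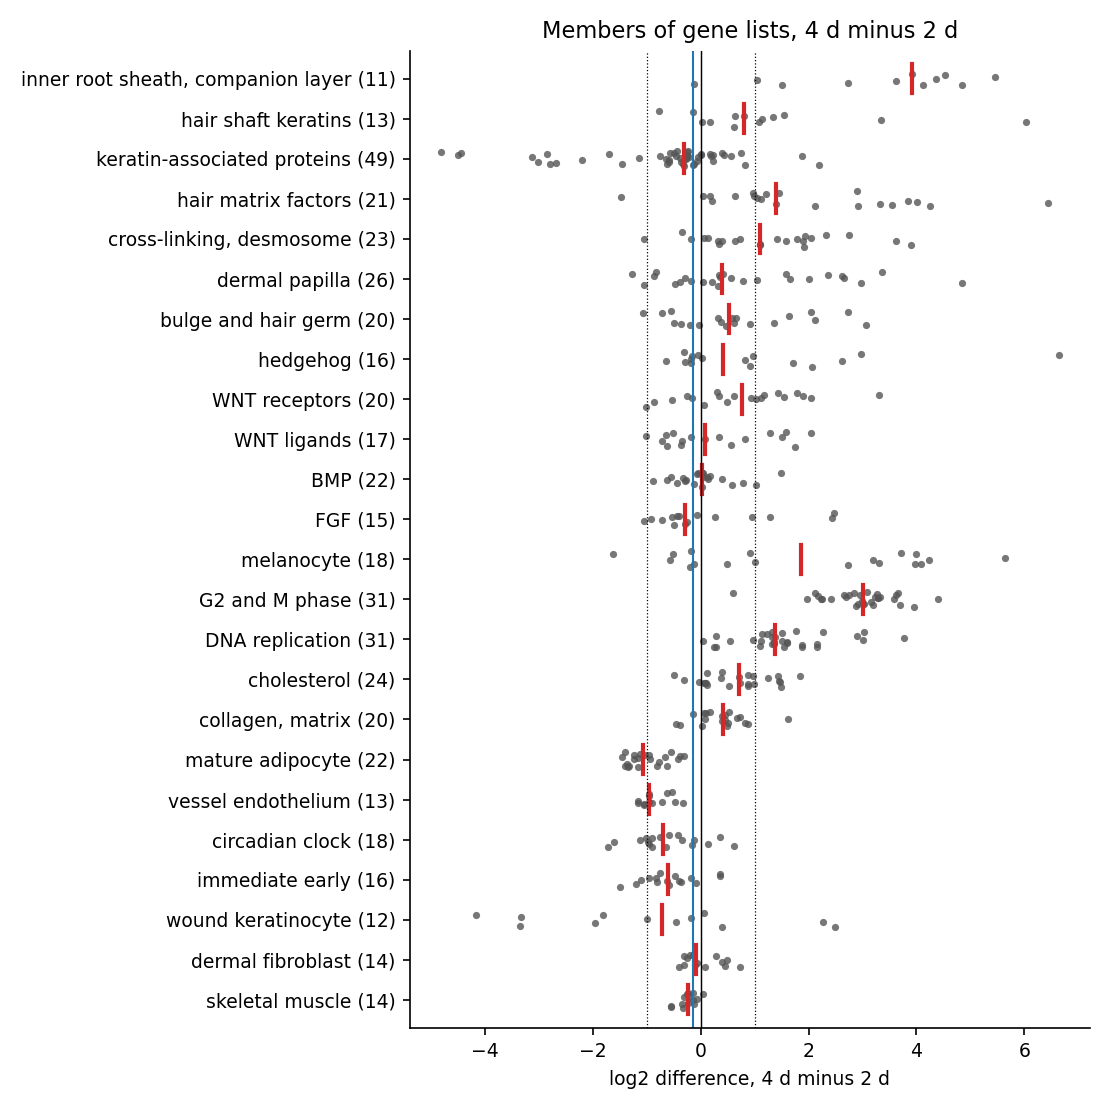
Log2 difference 4 d minus 2 d (horizontal axis) of every measured member (grey points, scattered vertically at random) of 24 gene lists, with the number of members in brackets; red bars are list medians, the blue line is the median of all genes at -0.14, and dotted lines mark 2-fold. Inner root sheath and G2 and M phase genes have medians of 3.92 and 3.00, and all adipocyte and endothelial members lie left of 0.

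Hedgehog genes split by role. The ligand Shh, which the growing hair germ secretes, stood at -0.65 at 4 d and was not well above background at 2 d, at -7.30, so it was at least 23.6-fold higher. On the 12 h and 1 d arrays it was at -7.77 and -7.17, and on the 6 d and 10 d arrays at -2.84 and -6.43, so the 4 d level was the highest. The other ligands did not follow: Dhh was at -0.84 at 4 d and -0.53 at 2 d, and Ihh at -4.04 at 4 d and -4.06 at 2 d. The targets and feedback genes of the pathway were higher together. Gli1, a target and effector, stood at 3.47 at 4 d and 0.49 at 2 d, 7.89-fold higher, although a dimmer probe differed by only 0.25. Hhip, a decoy receptor, was 6.18-fold higher and Ptch1, the receptor and a target, 4.18-fold, and the probes of each were in accord. The effector Gli2 was 3.28-fold higher and Gli3 within 2-fold. The coreceptors Gas1, Cdon and Boc, the transducer Smo, the inhibitor Sufu and the secretion genes Disp1 and Hhat were all within 2-fold. Of 16 measured members, 5 were higher and none lower, with a median of 0.42.

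WNT ligands were higher in 5 of 17 measured members and lower in 1. Wnt10a stood at 1.38 at 4 d and -0.67 at 2 d, 4.14-fold higher. Wnt3 was 3.35-fold, Wnt10b 3.01-fold, Wnt6 2.85-fold and Wnt5a 2.44-fold higher. With normexp, Wnt3 was within 2-fold, at a difference of 0.66. The other 11 ligands, among them Wnt4, Wnt7b and Wnt11, were within 2-fold, and Wnt8b, which was dim on both arrays, was 2.01-fold lower, with -0.59 to -0.93 and no call under each of the 4 alternatives run on single genes. The median of the list was 0.07, and with normexp it was -0.09, so the list as a whole has no direction.

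Of 20 WNT receptors and coreceptors, 9 were higher and 1 lower, with a median of 0.77, and with normexp 5 were higher and none lower. Fzd10 stood at 2.51 at 4 d and -0.79 at 2 d, 9.86-fold higher. Lgr5, a receptor for R-spondins, was 4.12-fold and Rnf43, which removes WNT receptors from the cell surface, 3.73-fold higher. The coreceptors Lrp5 and Lrp6 were within 2-fold. Among 12 nuclear effectors and targets, 4 were higher and none lower. Lef1, the factor that binds DNA with beta-catenin in the matrix, stood at 2.66 at 4 d and -1.35 at 2 d, 16.1-fold higher, and its 2 probes differed by 4.01 and 4.03. Ccnd1, which encodes cyclin D1, was 3.37-fold and Tcf7 2.32-fold higher. Sp5 was at least 5.22-fold higher. With normexp 2 of the 12 were past 2-fold, and Tcf7 differed by 0.83 and Sp5 by 0.99. The common target Axin2 was at -0.999 at 4 d and -1.81 at 2 d, and Myc at 0.47 at 4 d and 0.35 at 2 d, both within 2-fold. Nkd2 was unsettled, since its probes gave -0.02 and 3.12. Secreted WNT inhibitors were not lower: 3 of 12 were higher and none lower. Dkk1 was at least 4.75-fold higher, Wif1 7.81-fold, with 1.96 at 4 d and -1.003 at 2 d, and Sostdc1 2.08-fold.

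**Figure D4:**
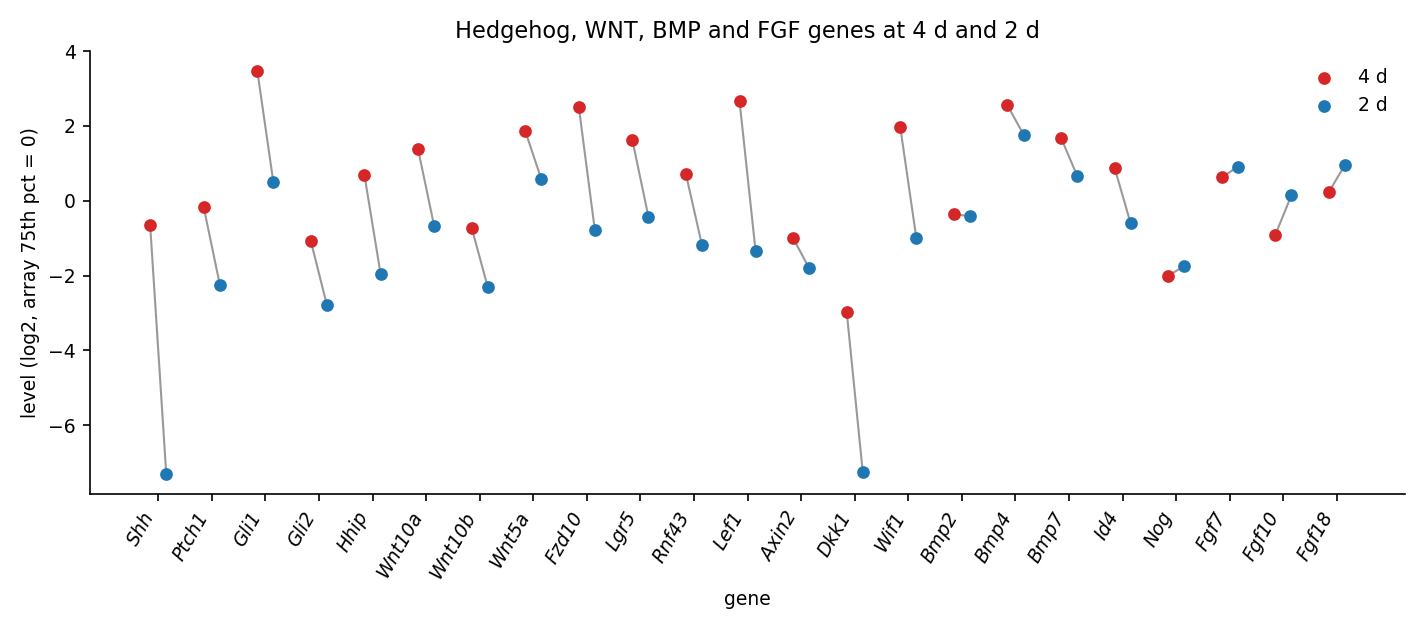
Levels of 23 hedgehog, WNT, BMP and FGF genes (vertical axis, log2 relative to the array's 75th percentile) at 4 d (red, left of each pair) and 2 d (blue, right), 1 array each. Shh and Dkk1 were not well above background at 2 d, Gli1, Fzd10 and Lef1 are higher at 4 d by 2.98 to 4.01, and Bmp2 is at -0.37 at 4 d and -0.41 at 2 d.

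BMP genes differed little. Of 22 measured members 2 were higher and none lower, with a median of 0.03, or -0.04 with normexp. The shares over all genes were 4.92% higher and 3.91% lower. Id4, a target, stood at 0.88 at 4 d and -0.61 at 2 d, and Bmp7 at 1.68 at 4 d and 0.67 at 2 d, although Bmp7 was within 2-fold with normexp, at 0.98. Bmp2 and Bmp4, ligands known to act in the resting phase, were at -0.37 and 2.55 at 4 d and at -0.41 and 1.77 at 2 d. The antagonists Nog, Chrd, Grem1 and Fst were within 2-fold, as were the targets Id1, Id2 and Id3. Of 15 FGF genes 3 were higher and 1 lower. Fgf5, which ends the growth phase, stood at -3.55 at 4 d and was at least 3.17-fold higher. Fgfr3 was 5.41-fold higher by its brightest probe, and its probes ran from -0.46 to 2.43. Fgf22 was 2.44-fold higher. With normexp 1 of the 15 was higher, and Fgf5 and Fgf22 differed by 0.66 and 0.86, while the mean over probes gave 0.88 for Fgfr3. Fgf10 was the lower member, at -0.91 at 4 d and 0.15 at 2 d, and lost that call with centring (-0.98) and normexp (-0.93), while the papilla signal Fgf7 and the resting-phase signal Fgf18 were within 2-fold.

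Among other signals, 4 of 16 NOTCH genes were higher and none lower, with a median of 0.50. These were target genes rather than ligands or receptors: Hes5 was 4.58-fold, Nrarp 3.13-fold and Heyl 2.73-fold higher, and Hey2 at least 3.80-fold, or 0.79 on the log2 scale with normexp. Of 16 EDA and EGF family genes 3 were higher and 1 lower. The EGF receptor ligand Areg was 3.31-fold higher than at 2 d, yet at -0.45 it lay below its 1 d level of 2.20. Another ligand of that receptor, Btc, was 2.33-fold lower, or -0.60 with normexp. Of 17 TGF-beta, activin and PDGF genes the activin subunit Inhba was higher, at -0.06 at 4 d and -1.10 at 2 d, and none was lower. Over all genes 4.92% were higher and 3.91% lower. With normexp Inhba differed by 0.95 and none of the 17 was past 2-fold.

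Genes of pigment cells divided into melanin synthesis genes, which were higher, and lineage genes, which were not. Of 18 measured members 10 were higher and 1 lower, with a median of 1.86. Tyrp1, an enzyme of melanin synthesis, stood at 2.69 at 4 d and -1.54 at 2 d, 18.8-fold higher. Dct, the dopachrome tautomerase, stood at 4.77 at 4 d and 1.06 at 2 d, and its 2 probes gave 3.71 and 3.83. Pmel, which forms the fibrils of the melanosome, was 15.7-fold higher and the melanocortin receptor Mc1r 15.8-fold. The transporters Slc45a2 and Slc24a5 were 9.93-fold and 9.18-fold higher and Mlana 6.60-fold. Oca2 and Gpr143 were not well above background at 2 d and were at least 16.7-fold and at least 10.7-fold higher. Tyr, which encodes tyrosinase, the first enzyme of the pathway, was 2.00-fold higher, or 0.84 on the log2 scale with normexp. By contrast Mitf, the master factor of the lineage, was at 2.42 at 4 d and 2.61 at 2 d. Sox10, Kit and Ednrb were at 0.17, 0.78 and 1.33 at 4 d and at 0.69, 0.96 and 1.46 at 2 d. Mast cells also make Mitf and Kit, and Schwann cells Sox10. Of 9 mast cell markers 1 was at least 2-fold lower and none higher, with a range of -1.22 to 0.14, and of 10 Schwann cell markers 1 was lower and none higher, with a range of -1.01 to 0.11, and none lower with normexp, quantile normalization or centring. Kit is itself among the mast cell markers and Sox10 among the Schwann cell markers, so these counts include those lineage genes. The part of mast and Schwann cells in the levels of the lineage genes was not tested. Cited1 was the lower member, at 1.08 at 4 d and 2.71 at 2 d. Trpm1 and Rab38 depended on the probe, with ranges of -0.58 to 6.32 and 0.92 to 3.33. Among 6 signals to melanocytes, Edn2 was 8.04-fold higher and Edn3 at least 1.35-fold (0.30 on the log2 scale with normexp), whereas Kitl, the ligand of Kit, was at -0.88 at 4 d and -0.43 at 2 d.

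The probe of Pmel shows what was measured, and the promoter of Tyrp1 shows letters that most but not all melanocyte list promoters held. The Pmel probe covers chr10:128156029-128156986 on the plus strand in mm9, a span of 958 bases for its 60, and so crosses an exon junction. In the 250 bases of GRCm38.p6 before the start of Tyrp1, chr4:80833963-80834212 on the plus strand, the letters CATGTG, the core of the M-box known from melanin synthesis genes, stand in capitals at -46:
Pmel: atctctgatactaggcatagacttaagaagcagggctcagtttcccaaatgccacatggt
Tyrp1: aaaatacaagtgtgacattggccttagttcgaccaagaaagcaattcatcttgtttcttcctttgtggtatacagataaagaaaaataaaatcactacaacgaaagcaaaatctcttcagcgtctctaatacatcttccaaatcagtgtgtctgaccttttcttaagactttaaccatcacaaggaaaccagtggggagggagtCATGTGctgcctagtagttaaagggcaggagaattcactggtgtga
CATGTG on either strand was in 8 of 12 promoters of the melanocyte list, against 15.9% of all promoters. The letters were not particular to that list: they were in 6 of 14 macrophage, 3 of 7 dermal fibroblast and 15 of 44 keratin-associated promoters.

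Cell division genes were higher almost without exception. Of 31 measured genes of the G2 and M phases 30 were at least 2-fold higher, none was lower, and the median was 3.00. Pbk, a mitotic kinase, stood at 0.33 at 4 d and -4.08 at 2 d, 21.2-fold higher. Bub1, of the spindle checkpoint, was 15.6-fold higher, the spindle motor Kif11 12.9-fold and the topoisomerase Top2a 12.7-fold. Mki67, the marker of cycling cells, stood at 4.00 at 4 d and 0.38 at 2 d, and its probes gave 3.62 and 3.69. Each of the 31 genes had its highest level at 4 d among the 6 arrays. Of 31 DNA replication genes 25 were higher and none lower, with a median of 1.37. Uhrf1, which copies DNA methylation to new strands, was 13.6-fold higher by its brightest probe, with 2.90 at 4 d and -0.86 at 2 d. Its 2 probes gave differences of 1.685 and 3.76. Rrm2, which makes deoxynucleotides, was 8.06-fold and the helicase subunit Mcm5 7.45-fold higher. Tk1 was 8.21-fold higher by its brightest probe, while another gave 0.00. Of 7 cell cycle inhibitor genes Cdkn2b and Cdkn2a were higher, at 2.33-fold and 2.17-fold, and the rest were within 2-fold. Cdkn2a differed by only 0.11 with normexp, and with the mean over probes neither was past 2-fold.

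Promoters of the division genes were searched for letters of known cell cycle elements. TTTGAA, the core of the cell cycle homology region, was in 18 of 25 G2 and M phase promoters, against 20.2% of all promoters, and CCAAT was in 20 of 25, against 41.1%. Neither was particular to them: TTTGAA was in 6 of 7 shaft keratin promoters, and CCAAT in 16 of 16 cholesterol, 7 of 8 MHC class II and 12 of 15 clock promoters. Letters of E2F sites (TTTCCCGC, TTTGGCGC, TTTCGCGC or TTTGCCGC, either strand) were in 12 of 25 replication promoters, against 2.60% of all and 1 of 25 of the G2 and M phase promoters. TATAAA was in none of the 25 G2 and M phase promoters. The 250 bases before the start are given for Kif11, chr19:37376132-37376381, with CCAAT and TTTGAA in capitals at -45 and -19, both read on the other strand, and for Uhrf1, chr17:56304063-56304312, with an E2F letter string in capitals at -185, both genes on the plus strand of GRCm38.p6:
Kif11: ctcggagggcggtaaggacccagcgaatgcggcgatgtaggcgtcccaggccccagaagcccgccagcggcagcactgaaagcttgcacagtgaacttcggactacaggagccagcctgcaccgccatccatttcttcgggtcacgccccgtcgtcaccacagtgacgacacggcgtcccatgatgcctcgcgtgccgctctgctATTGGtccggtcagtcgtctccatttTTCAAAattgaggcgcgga
Uhrf1: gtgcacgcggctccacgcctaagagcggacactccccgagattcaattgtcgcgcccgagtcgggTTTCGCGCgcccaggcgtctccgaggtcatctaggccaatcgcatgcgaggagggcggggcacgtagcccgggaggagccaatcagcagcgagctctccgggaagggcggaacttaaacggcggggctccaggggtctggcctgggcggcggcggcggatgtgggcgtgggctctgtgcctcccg
In all, 10 letter patterns were searched after the differences were known, and the matches are counts of letters only.

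Genes of polyamine and ribosome production and of cholesterol synthesis were mostly higher at 4 d, though mostly within 2-fold, and glycolysis genes were mostly slightly lower. Above their 2 d levels were 19 of 20 polyamine and ribosome genes and 21 of 24 cholesterol genes, against 36.3% of all genes. Mycn, a MYC family factor of the matrix, was 19.5-fold higher, at 1.45 at 4 d and -2.83 at 2 d. Of 20 genes of polyamine and ribosome production, Mycn among them, 3 were at least 2-fold higher, none was lower, and the median was 0.50. Odc1, the first enzyme of polyamine synthesis, was 2.09-fold and the nucleolar protein gene Nop58 2.43-fold higher. Cholesterol synthesis and uptake genes had a median of 0.72, with 6 of 24 higher and none lower. The enzymes Sqle, Cyp51 and Idi1 were 3.57-fold, 2.77-fold and 2.71-fold higher. Glycolysis genes were within 2-fold in all 15 members, 13 of them below their 2 d levels, with a median of -0.22.

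Mature adipocyte genes were lower at 4 d without exception. All 22 measured members, the whole list, were below their 2 d levels, 12 of them at least 2-fold, none was higher, and the median was -1.08. Over all genes, 18488 of 29041 were below their 2 d levels and 3.91% were at least 2-fold lower. Adipoq, which encodes the fat hormone adiponectin, stood at 5.79 at 4 d and 7.19 at 2 d, 2.64-fold lower. The receptor gene Acvr1c was 2.76-fold lower, the glycerol channel gene Aqp7 2.65-fold, the lipase gene Lipe 2.59-fold and the droplet coat gene Plin4 2.55-fold. Both arrays thus held strong signal for the labelled cell type. The 2 d array was the highest of the 6 arrays for 17 of the 22 genes, and Adipoq had 5.91 and 6.74 on the 12 h and 1 d arrays and 5.71 and 5.88 on those of 6 d and 10 d. The 4 d level of Adipoq was therefore close to its 12 h level, but the list as a whole differed. The list's median was 4.82 at 12 h, 5.17 at 1 d and 5.25 at 2 d. It then stood at 4.23 at 4 d, 4.19 at 6 d and 4.30 at 10 d. Genes of adipocyte progenitors had a median of -0.42 and no member past 2-fold among 15. Of 18 fatty acid and triglyceride synthesis genes 2 were lower, Gpam and Dgat1, and Scd2 was higher. Neither lower call held with normexp, which gave -0.97 for Gpam and -0.99 for Dgat1.

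Vessel genes were lower beside the adipocyte genes. All 13 measured endothelial markers were below their 2 d levels, and the median was -0.96. At least 2-fold lower were 4 of them, or 2 with centring on the median of detected probes, against 3.91% of all genes. Robo4 stood at 1.69 at 4 d and 2.86 at 2 d, and Tie1, a receptor of blood vessels, at -1.17 at 4 d and -0.01 at 2 d. Other tissues of the sample differed less. Skeletal muscle genes had no member past 2-fold among 14 and a median of -0.24, with Acta1 at 8.42 at 4 d and 8.76 at 2 d, and 14 dermal fibroblast genes had none and a median of -0.08. Globin and other erythroid genes had a median of -0.20. Of 20 collagen and matrix genes 17 were above their 2 d levels, although Col12a1, a collagen that decorates fibrils, was the only member past 2-fold, at 1.03 at 4 d and -0.59 at 2 d. The part that the mix of tissues has in the adipocyte and endothelial values was not tested.

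Markers of the surface epidermis did not move as a block. Of 20 interfollicular keratinocyte genes 5 were higher and 4 lower, with a median of 0.31 and a range of -1.85 to 2.74. The desmosome genes Dsc1 and Dsg1a were 6.70-fold and 6.47-fold higher, both also made in the follicle. Krt1, the keratin of upper epidermis, was at 0.55 at 4 d and 2.29 at 2 d, and Hrnr, a cornified layer gene, at -3.20 at 4 d and -1.35 at 2 d. In the wound keratinocyte list 5 of 12 were lower and 2 higher, with a range of -4.16 to 2.50. Sprr1b, a cornified envelope gene, stood at -4.51 at 4 d and -0.35 at 2 d, 17.9-fold lower, and Stfa1, a stefin protease inhibitor, at -2.50 at 4 d and 0.85 at 2 d. Sprr2d was at least 5.53-fold lower. Against these, Krt17, a keratin of the outer root sheath and of stressed epidermis, was 5.65-fold higher, at 5.63 at 4 d and 3.14 at 2 d, and Sprr1a 4.81-fold. Sebaceous gland genes were within 2-fold in all 15 members. The part of these cell types in the follicle gene values was not tested. Stefin and Sprr genes have near-identical copies that can share hybridisation.

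Inflammatory genes were mostly within 2-fold, as were 26477 of the 29041 genes measured. Of those 29041 genes 18488 were below their 2 d level, with 3.91% at least 2-fold lower, 4.92% higher and a median of -0.14. Of 27 measured cytokine and chemokine genes 4 were lower and 2 higher, with a median of -0.36, and with normexp 2 were lower and 2 higher. The neutrophil attractant Cxcl1 stood at -3.36 at 4 d and -1.60 at 2 d, and the T cell attractant Cxcl9 was 3.20-fold lower. Ccl8 and Ccl19 were 2.32-fold and 2.47-fold higher. Il1f6, which encodes the cytokine IL-36 alpha, was 7.72-fold lower, and Ido1, which breaks down tryptophan, 6.24-fold. All 17 complement and acute phase genes were below their 2 d levels and 4 were past 2-fold, with a median of -0.53. Saa2, an acute phase protein gene, was lower on each later array up to 4 d, with 1.90 at 12 h, -0.32 at 1 d and then -2.55 and -5.05 on the 2 d and 4 d arrays. Lcn2 was 4.16-fold lower. Macrophage, T and NK cell and B cell marker lists had no member past 2-fold among 19, 13 and 10, with medians of -0.18, -0.41 and -0.49. All 11 MHC class II genes and all 23 interferon-stimulated genes were within 2-fold.

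Clock and immediate early genes were lower in part. Over all genes 3.91% were at least 2-fold lower and 4.92% higher, with a median difference of -0.14. Of 18 clock genes 4 were lower and none higher, with a median of -0.70, and 2 were lower with normexp or quantile normalization. Dbp, a clock output gene, stood at 1.73 at 4 d and 3.46 at 2 d, and its 2 probes gave -1.73 and -1.69. Per2 was 3.04-fold lower. Of 16 immediate early genes, which respond within minutes to stimuli, 3 were lower and none higher, with Fosb 2.82-fold, Fos 2.30-fold and Atf3 2.15-fold lower. Among matrix metalloproteases and related genes Mmp11 was 2.73-fold lower, Mmp13 at least 2.23-fold lower (-0.53 on the log2 scale with normexp) and Adamts4 3.75-fold higher.

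Some leading genes lay outside the groups above. Fbp1, an enzyme of gluconeogenesis, stood at 3.18 at 4 d and -1.43 at 2 d, 24.5-fold higher, and was at 3.78 at 6 d. The organic anion transporter gene Slco4a1 was 20.5-fold higher and at -0.06 at 6 d. A few genes, singled out after their values were seen, were high at 4 d alone. Slc30a10, a manganese transporter gene, stood at -1.03 at 4 d and was at least 18.2-fold higher than at 2 d, and lay between -8.03 and -7.15 on the 12 h, 1 d, 6 d and 10 d arrays. The RING ligase gene Rnf183 stood at -0.59 at 4 d and between -6.01 and -5.08 on those 4 arrays, and Rpusd2, a pseudouridine synthase gene, at -1.37 at 4 d. Pramef12, now called Pramel13, was 18.6-fold higher, at -0.03 at 4 d and -4.25 at 2 d. It lay between -5.48 and -3.60 on those 4 arrays. The neutrophil granule gene Ngp, of the neutrophil marker list, stood at -1.73 at 4 d and was at least 11.2-fold higher, while the marker Ltf was at 0.17 at 4 d and 1.41 at 2 d, and of 13 measured members 2 were higher, or 1 with normexp, and 3 lower, with a median of -0.46. Each of these genes that were high at 4 d alone was read by 1 probe. In the other direction Vmn2r34, a vomeronasal receptor gene, was at -5.36 at 4 d and -2.47 at 2 d and between -5.22 and -4.25 on the other 4 arrays. Rab11fip1 was at least 5.97-fold lower, at -5.20 at 4 d and -2.63 at 2 d. With normexp it differed by -0.93.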

How the data were processed

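The deposited scanner output gives an intensity for each spot that the authors obtained with Agilent Feature Extraction 10.5.1.1, per the file headers: background was subtracted, spatial and multiplicative detrending were on, and dim spots received surrogate values. The headers record no step that normalizes one array to another. All arrays were on 1 slide.

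Control spots and spots marked as outliers were left out. Processed signals were put on a log2 scale, centred on the 75th percentile of their array and averaged over the spots of a probe. Of 55681 probes 6 were dropped. The brightest probe by mean of the 4 d and 2 d arrays stood for a gene name and had to be well above background on the brighter array. Current symbols came from RefSeq (GRCm38.p6), which matched 27232 probes. The 36 gene lists and 16 cell type lists, 848 genes measured, and the members described were chosen with earlier results of these data known. Among genes with a symbol, the 15 highest and 10 lowest measured on both arrays and the 5 largest bounds each way were named. Also named were the 5 leading members of a list, and all members of the signalling, pigment, keratin and matrix factor lists, not all of them printed. Promoter and probe letters were counted in Python 3.11.15 with pandas 2.3.3. Code was tested on simulated data. Alternatives were quantile normalization, centring, normexp with an offset of 50 (limma 3.58.1), other background filters, the mean over probes, other folds and the mean of list members. Some members of the lists are counted but not reported here by name.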

Additional observations from a re-analysis of the deposited data

How the results depend on the processing

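No paired analysis was possible because each time has 1 array. The number of genes at least 2-fold higher was 1429 and at least 2-fold lower 1135. With normexp background correction they were 912 and 286, without a filter on dim probes 1797 genes were lower, and they were 551 and 122 at 4-fold and 2546 and 4015 at 1.5-fold. Quantile normalization, centring, a filter on both arrays and the mean over probes left both counts within 1.5 times. Of the medians given as main results, the shaft keratin median moved to 1.08 with the mean over probes and 1.22 as a mean of members, the inner root sheath median to 3.66 with normexp and 3.27 as a mean, the melanocyte median to 1.32 with normexp and 2.54 with the mean over probes, the G2 and M phase median to 2.56 with normexp, and the keratin-associated median to -0.73 as a mean; each kept its sign. As a mean of members, the FGF list turned to 0.15, Langerhans and dendritic cells to 0.0289 and neutrophils to 0.14. Of 189 single genes past 2-fold, 38 were inside it with normexp, 9 with centring, 7 with the mean over probes and 6 with quantile normalization, and none changed sign. The causes were not tested. Dim genes, whose level at 1 time is near background, limit the size of the folds, and 1 sample a time leaves the spread between mice unknown.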
